A study of Mus musculus with 9 samples.

Results

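The proteasome subunit genes are the genes for the parts of the protease complex that degrades ubiquitin-tagged proteins. They were taken from the expression table by symbol, as every gene named Psma, Psmb, Psmc, Psmd, Psme, Psmf or Psmg followed by a number. The inducible immunoproteasome genes Psmb8, Psmb9 and Psmb10 were set aside. The rule gave 45 of 23309 symbols: 16 core genes (Psma and Psmb), 24 regulatory genes (Psmc, Psmd and Psme) and 5 others, namely the inhibitor gene Psmf1 and the assembly chaperone genes Psmg1 to Psmg4. No measured value was used to choose them. Of the 45, 41 reached 1 FPKM in 3 or more of the 9 libraries and could be tested: 14 core, 24 regulatory and 3 others.

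The 26S proteasome is a barrel with a cap. The barrel, or 20S core, stacks rings of alpha subunits, which form the gate, on rings of beta subunits, of which Psmb5, Psmb6 and Psmb7 carry the cutting sites. The 19S cap binds ubiquitin chains, removes them and feeds the unfolded protein into the barrel by a ring of ATPases, while the Psme proteins are alternative caps that work without ubiquitin. In many mammalian cells, loss of proteasome activity is followed by a joint rise of these genes through the transcription factor NRF1 (gene Nfe2l1). Podocytes hardly divide, so their proteins are renewed by turnover and not by making new cells.

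The 9 RNA libraries were made from podocytes, which cover the outside of the kidney's filtering capillaries, in a series whose title concerns their repair after injury. All libraries came from wildtype mice aged 7 to 8 weeks with the mTmG reporter, in which Cre recombinase, here driven in podocytes, turns on green fluorescent protein. Total RNA of GFP-positive cells was depleted of ribosomal RNA. The groups were PBS, ADR on day 9 (ADR_D9) and ADR on day 14 (ADR_D14), each with 3 libraries, and the labels do not spell out ADR. Nor do they name separate animals for the replicates, so a p-value here reflects the spread among libraries, which may be technical. The unit is FPKM, a fragment count divided by transcript length and library size, so levels of different genes may be set side by side.

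The podocyte markers Nphs1, Podxl and Wt1 were above 1 FPKM in every library. A pair of libraries stood apart by markers of other kidney cells. In ADR_D14 replicate 1 the summed level of 8 markers of distal tubule, loop and duct was 12339 FPKM, against 2.55 to 4.17 in the other day 14 libraries. Its 8 endothelial markers summed to 492.8 FPKM, its 8 proximal tubule markers to 1985 and its 8 leukocyte markers to 1953. In ADR_D9 replicate 3 the endothelial sum was 1681 FPKM and the leukocyte sum 1292, where PBS had at most 4.33 FPKM of endothelial markers. In both of these libraries 8 of 8 endothelial markers were above 4 times the highest PBS value. Column totals ran from 572787 to 723288 FPKM. Estimated depth, with PBS replicate 2 at 1, was 1.082 and 1.085 in the other PBS libraries, 0.786 to 0.889 at day 9 and 0.239 to 0.569 at day 14, lowest in replicate 1. Counts were not used here, so no counting interval can be given. The sum of 4 Y-linked genes was 53.6 to 70.5 FPKM in the 3 PBS libraries, ADR_D9 replicate 1 and ADR_D14 replicate 2 and at most 1.06 in the other 4, so this level is partly mixed with the groups. The part of markers, depth and Y-linked level in the results was not tested, beyond the values given beside them.

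On day 14, 7 of the 41 tested genes rose against PBS and none fell: Psma1, Psma5 and Psmb3 of the core genes, and Psmc1, Psmd5, Psmd12 and Psmd13 of the regulatory genes. That is 17.1% of the genes, the same share as among all 9788 genes tested, of which 17.1% passed. All 7 were higher, whereas in the table as a whole 6.32% of genes passed as higher and 10.7% as lower. On day 9, 0 of 41 passed against PBS by limma, where 0% of all genes did. The day 14 rise was uneven: the largest, of Psmb3, was 3.48-fold by the ratio of mean FPKM, while Psmb2 and Psmb5, among the most abundant core genes, lay below PBS in every day 14 library without passing the test. These are values of sorted cells in bulk, in which fewer cells of a type and less RNA per cell cannot be told apart.

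To show the start regions of the genes on which these results turn, the promoters of Psmb3 and Psma5, the core genes that rose most, of Psmd12, a regulatory gene that rose, and of Psmb5, which lay lower, are printed 5′ to 3′, from 250 bases before the start to 50 bases after it (RefSeq, GRCm38.p6). They lie at chr11:97703184-97703483 (plus strand), chr3:108256676-108256975 (plus), chr11:107479278-107479577 (plus) and chr14:54617946-54618245 (minus). Capitals mark, on either strand, the antioxidant response element TGACNNNGC, the type of site through which NRF1 acts, and CCAAT, a common promoter element.
Psmb3: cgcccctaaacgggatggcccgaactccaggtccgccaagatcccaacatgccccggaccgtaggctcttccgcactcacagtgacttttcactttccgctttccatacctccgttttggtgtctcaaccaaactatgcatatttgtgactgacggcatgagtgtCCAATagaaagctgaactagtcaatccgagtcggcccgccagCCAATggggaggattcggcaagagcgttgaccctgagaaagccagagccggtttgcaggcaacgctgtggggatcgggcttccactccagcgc
Psma5: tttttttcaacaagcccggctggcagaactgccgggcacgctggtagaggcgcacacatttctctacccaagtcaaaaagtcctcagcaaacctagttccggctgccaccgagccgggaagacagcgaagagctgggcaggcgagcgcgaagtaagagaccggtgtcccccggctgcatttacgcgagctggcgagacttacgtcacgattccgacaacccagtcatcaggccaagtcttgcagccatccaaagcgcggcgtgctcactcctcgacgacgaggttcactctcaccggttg
Psmd12: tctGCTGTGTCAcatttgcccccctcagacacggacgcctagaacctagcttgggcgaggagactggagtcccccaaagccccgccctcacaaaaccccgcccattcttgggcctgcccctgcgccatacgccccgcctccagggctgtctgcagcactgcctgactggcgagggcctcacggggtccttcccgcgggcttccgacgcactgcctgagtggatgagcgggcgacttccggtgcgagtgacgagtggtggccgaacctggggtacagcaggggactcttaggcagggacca
Psmb5: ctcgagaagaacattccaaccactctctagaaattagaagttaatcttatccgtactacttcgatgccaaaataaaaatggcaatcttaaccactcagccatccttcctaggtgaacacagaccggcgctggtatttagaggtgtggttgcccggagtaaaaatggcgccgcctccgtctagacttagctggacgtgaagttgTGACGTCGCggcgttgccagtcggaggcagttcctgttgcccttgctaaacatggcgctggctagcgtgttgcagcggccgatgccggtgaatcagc
Psmb3 held 2 CCAAT matches, Psmd12 and Psmb5 1 TGACNNNGC match each, and Psma5 no match of either. The table matched 37 of the 45 genes with 40 promoters, and 6 of the 40 (15%) held TGACNNNGC, against 12.4% of all 32851 promoters. These were promoters of Psmb5, Psmb6, Psmc6, Psmd9, Psmd12 and Psme4, of which Psmd12 alone rose on day 14. CCAAT was held by 13 of 40 (32.5%), against 37.4% of all promoters, and by 3 of the 7 genes that rose (Psma1, Psmb3 and Psmc1). Both shares lay near those of all promoters.

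Levels in PBS set the scale for the changes. Psma7, an alpha ring subunit, was the most abundant there at 1102 ± 74.3 FPKM (SD, n = 3), in percentile 99.2 of the tested genes. Psmb2, a beta subunit without a cutting site, followed at 866 ± 87.4, and their ranges did not overlap. From Psmb2 down through Psma6, Psmb5, Psmb1, Psmb4, Psme2, Psmc4, Psma3 and Psmd11, each gene's range overlapped that of the next. At the other end stood Psme4, the PA200 activator, at 0.903 ± 0.175 FPKM and Psmd14, the deubiquitinase that cuts ubiquitin chains off the substrate, at 0.760 ± 0.143. Mean FPKM of the 24 regulatory genes spanned 829-fold in PBS, and that of the 14 tested core genes 92.3-fold. The 6 ATPase genes of the cap base were closest to each other, from Psmc6 at 73.7 ± 2.43 to Psmc4 at 628 ± 57.7 FPKM, a span of 8.51-fold. Of the 16 core genes, 10 stood at or above 100 FPKM in PBS, against 9 of the 24 regulatory genes, and 7 regulatory genes lay between 1 and 20. The core genes together made up 1.04% to 1.10% of the FPKM total in PBS, 0.812% to 1.06% on day 9 and 0.664% to 1.23% on day 14, where replicate 1 was lowest.

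**Figure D1:**
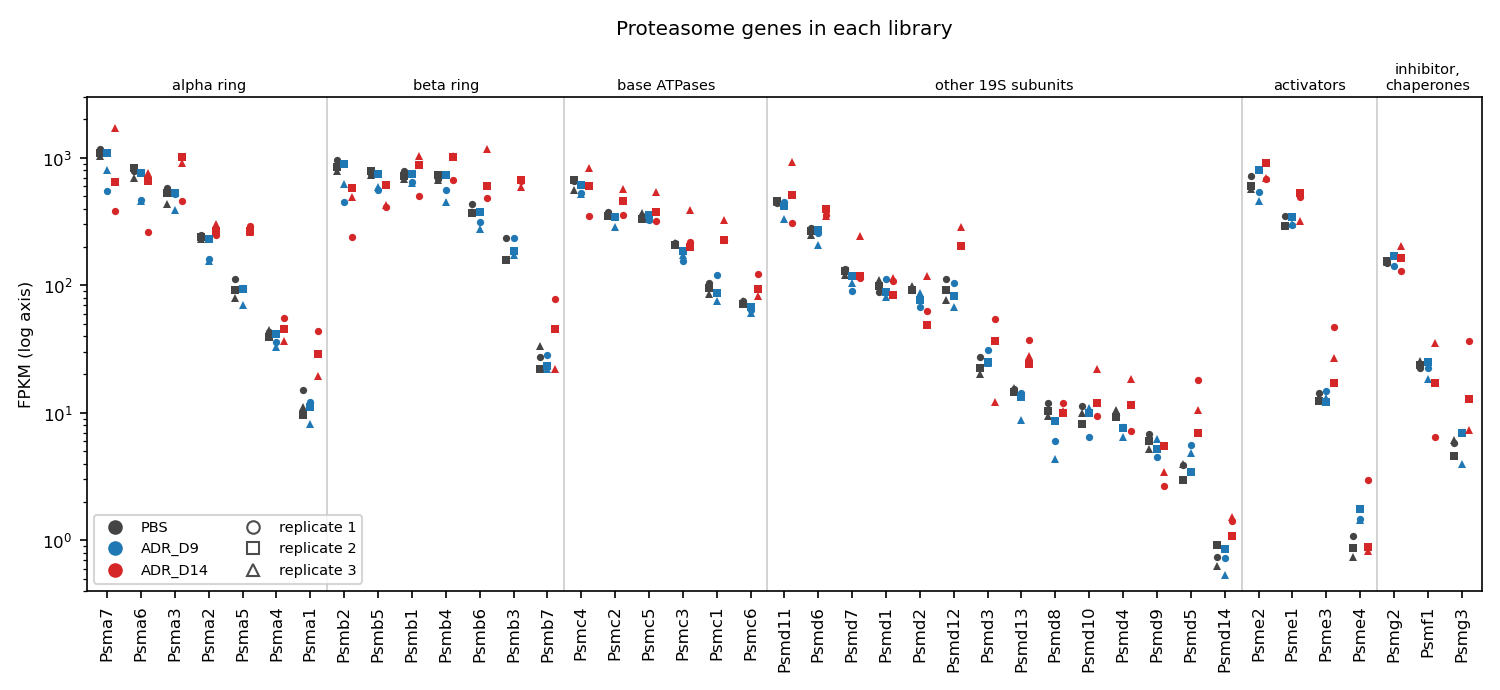
FPKM (log axis) of the 41 tested proteasome genes in each of the 9 libraries, ordered by role and by mean PBS level; colours mark the group and shapes the replicate. Psma7 is the highest at 1102 FPKM in PBS and Psmd14 the lowest at 0.76, and the red day 14 points of Psma5 and Psmb3 stand clear of the others.

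Genes that failed the filter included those of tissue-specific forms. Psma8, the alpha subunit of the testis form, was listed at 0 in 8 libraries and at 0.0215 FPKM in PBS replicate 1. Psmb11, the beta subunit of the thymus form, reached at most 0.213 FPKM. The assembly chaperone gene Psmg1 ran from 0.0511 to 0.559 FPKM, with its maximum in ADR_D14 replicate 1, and Psmg4 from 0.287 to 1.28. Psmd14 passed the filter only through the 3 day 14 libraries, so its day 14 difference was favoured by the filter. Likewise, Psme4 would not have passed without the day 9 libraries, so its day 9 difference was favoured too.

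Among the alpha ring genes, 7 of 8 were tested, and Psma5 and Psma1 rose on day 14. Psma5 read 112, 92.3 and 79.3 FPKM in PBS, 94.7, 93.6 and 70.5 on day 9 and 290.3, 266 and 264 on day 14. Every day 14 library was above every other library, and the 3 day 14 values lay close together although replicate 1 carried the markers of other cells. The change against PBS was 1.68 ± 0.22 (SE) on the log2(FPKM + 1) scale, relative to the median of all genes (adjusted p = 0.00994 by limma, n = 3 per group). All log2 changes below are on that scale. Psma1 read 15.1, 9.57 and 11.1 FPKM in PBS, 12.1, 11.2 and 8.12 on day 9 and 43.6, 29.1 and 19.5 on day 14. No overlap was seen, but ADR_D14 replicate 1 was the highest library of the 3. The change was 1.39 ± 0.33 (adjusted p = 0.035 by limma), and without ADR_D14 replicate 1 it did not pass (adjusted p = 0.0535). The most abundant alpha gene, Psma7, read 1182, 1089 and 1035 FPKM in PBS, 552, 1099.8 and 802 on day 9 and 382, 644 and 1726 on day 14. Its day 14 libraries reached from below to above all PBS libraries, and its change of −0.40 ± 0.51 did not pass (adjusted p = 0.479 by limma) and was 0.11 without ADR_D14 replicate 1. The other 4 tested alpha genes had changes from −0.45 (Psma6) to 0.70 (Psma3), none of which passed. Psma6 read 786, 837 and 696 FPKM in PBS and 261, 657 and 762 on day 14, and Psma3 581, 534 and 435 and 454, 1023 and 915. In both, replicate 1 was the lowest day 14 library, and the groups overlapped.

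Of the beta ring, 7 of 8 genes were tested and Psmb3, a beta subunit without a cutting site, rose. Psmb3 read 235, 158 and 159 FPKM in PBS, 235, 186 and 172 on day 9 and 655, 674 and 590.5 on day 14. Every day 14 library was far above every other, and replicate 1 did not stand out. The means were 184 ± 44 in PBS and 639.8 ± 43.7 on day 14 (SD, n = 3), a change of 1.96 ± 0.24 (adjusted p = 0.00994 by limma), the largest among the 41 genes. The 3 genes of the cutting subunits went different ways. Psmb5, of the chymotrypsin-like site, read 745, 793 and 736 FPKM in PBS, 555, 747 and 592 on day 9 and 415, 617 and 425 on day 14. No day 14 library reached the PBS range, but the change of −0.52 ± 0.24 did not pass (adjusted p = 0.0889 by limma). Psmb6, of the caspase-like site, read 435, 368 and 374 FPKM in PBS, 316, 378 and 278 on day 9 and 487, 599 and 1164 on day 14. Here all day 14 libraries lay above PBS, with replicate 3 far above the others, and the change of 0.98 ± 0.33 did not pass (adjusted p = 0.112). Psmb7, of the trypsin-like site, read 27.6, 22 and 33.6 FPKM in PBS, 28.4, 23.5 and 22.1 on day 9 and 78.4, 45.7 and 22.2 on day 14, so the groups overlapped (0.79 ± 0.41, adjusted p = 0.301 by limma). GENCODE M21 lists pseudogenes named after Psmb5 (1), Psmb6 (2) and Psmb7 (1), and how reads that map to several places were counted is not given in the sources used here, so these 3 values are less certain.

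Psmb2 was the lowest of the 41 by its day 14 change. It read 962, 846 and 790.1 FPKM in PBS, 449, 898 and 619.6 on day 9 and 239, 580.5 and 495 on day 14. None of these last 3 values reached the PBS range, and ADR_D14 replicate 1 was lowest. The change of −0.93 ± 0.38 did not pass (adjusted p = 0.085 by limma). Under quantile normalization, under scaling to a common total and with the trend on transcript length and GC content removed, Psmb2 and Psmb5 passed as lower. The remaining beta genes, Psmb1 and Psmb4, had changes of 0.23 and 0.50 and overlapped PBS.

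**Figure D2:**
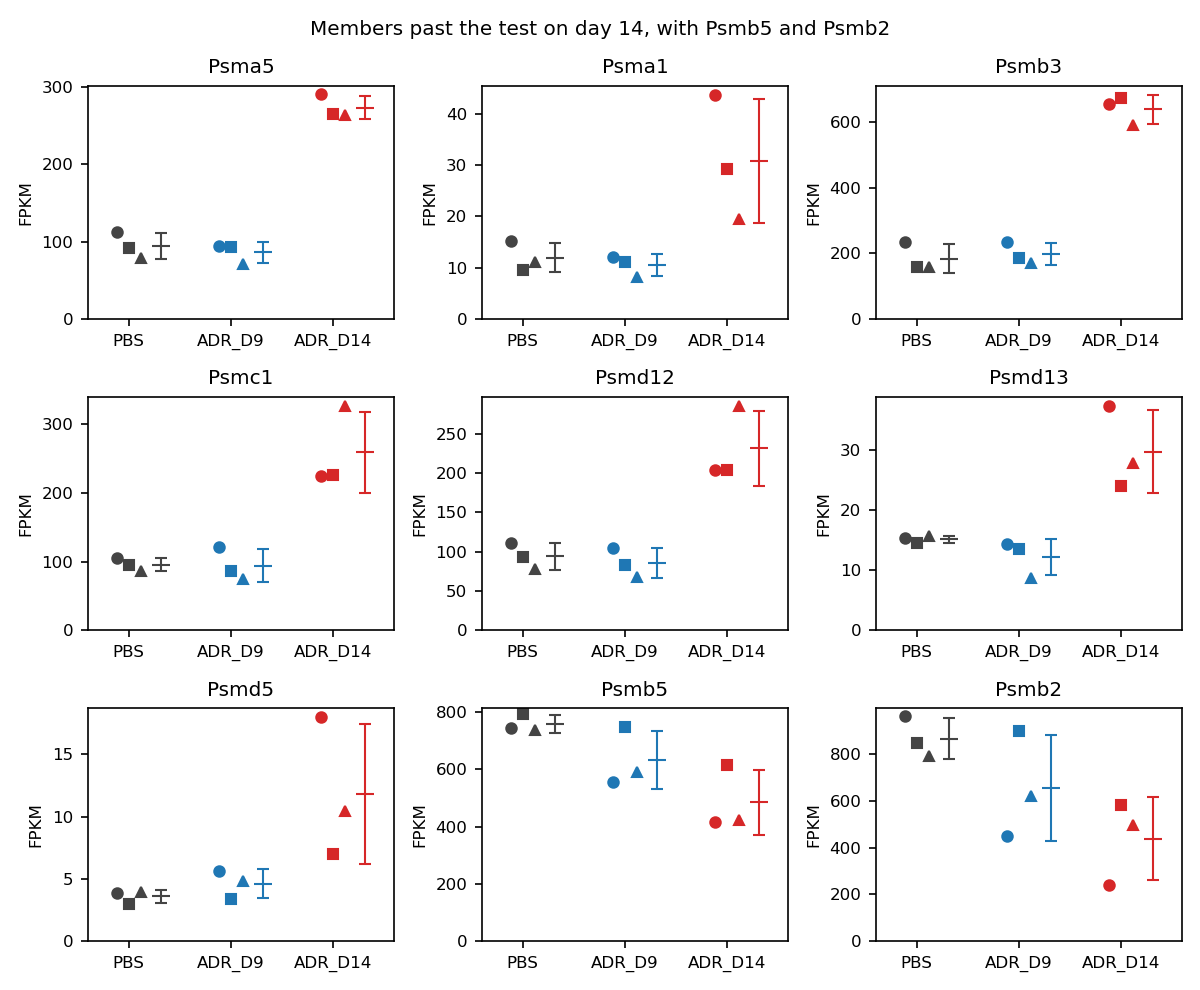
FPKM by group for the 7 proteasome genes that passed against PBS on day 14, and for Psmb5 and Psmb2; points are libraries (circle, square and triangle for replicates 1, 2 and 3) and the bar beside them is the mean ± SD (n = 3). Psmb3 and Psma5 have 3 close day 14 values well above the rest, Psma1 and Psmd5 are highest in replicate 1, and Psmb2 and Psmb5 lie lower on day 14.

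Of the 6 base ATPases, which unfold the substrate, Psmc1 rose. It read 105, 94.9 and 85.7 FPKM in PBS, 121, 86.3 and 74.7 on day 9 and 225, 226 and 327 on day 14, with all day 14 libraries above all others. The change was 1.57 ± 0.25 (adjusted p = 0.0126 by limma). None of its 5 partners in the ring passed, with changes from −0.02 for Psmc4 to 0.56 for Psmc6. Psmc6 read 74.7, 71 and 75.5 FPKM in PBS and 124, 93.1 and 82.1 on day 14, with no overlap. Psmc4 read 654, 668 and 561 in PBS and 349, 601 and 829 on day 14, spreading to both sides of PBS, and its change was 0.34 without ADR_D14 replicate 1.

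Of the 14 Psmd genes, grouped by symbol, Psmd12, Psmd5 and Psmd13 rose. Psmd12 encodes a lid subunit and read 111, 92.7 and 77.4 FPKM in PBS, 105, 82.7 and 67.9 on day 9 and 204, 204 and 286 on day 14. Groups did not overlap, and the change was 1.44 ± 0.25 (adjusted p = 0.0159 by limma). Psmd5 encodes a chaperone of cap assembly that is not part of the finished proteasome. It read 3.87, 2.95 and 3.94 FPKM in PBS, 5.64, 3.41 and 4.82 on day 9 and 18, 6.99 and 10.5 on day 14. Day 14 was above the rest in every library and highest in replicate 1, and the change was 1.54 ± 0.35 (adjusted p = 0.029 by limma). Psmd13, another lid subunit, read 15.3, 14.4 and 15.6 FPKM in PBS, 14.3, 13.4 and 8.72 on day 9 and 37.4, 24 and 27.7 on day 14. It did not overlap PBS, and its change of 1.05 ± 0.26 passed narrowly (adjusted p = 0.0446 by limma), which held in 1 of 9 repeats that left out a library. Psmd5 overlaps the gene Cutal and Psmd13 the gene Sirt3 in GENCODE M21. Protein-coding neighbours also overlap Psma2, Psma4, Psmb7, Psmc3, Psmd1, Psmd9, Psme1 and Psmg3. A noncoding neighbour overlaps Psma3, Psma5 and Psmd3. Use of strand is not given in the sources used here, so reads of such neighbours may not be told apart.

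The other 11 of these 14 genes did not pass. Of the scaffold genes, Psmd1 read 88.4, 99.1 and 109 FPKM in PBS and 108, 84 and 115 on day 14, and Psmd2 92.4, 91.3 and 98.9 and 62.4, 49.1 and 117, overlapping in both. The ubiquitin receptor gene Psmd4 read 9.58, 9.33 and 10.5 in PBS, 7.74, 7.58 and 6.43 on day 9 and 7.22, 11.5 and 18.3 on day 14. Its day 14 libraries fell on both sides of PBS. Psmd14 read 0.744, 0.911 and 0.626 FPKM in PBS, 0.729, 0.849 and 0.537 on day 9 and 1.41, 1.07 and 1.51 on day 14, with a change of 0.55 ± 0.18 (adjusted p = 0.153 by limma). The most abundant gene of the cap outside the ATPases, Psmd11, read 443, 456 and 453 FPKM in PBS and 308, 512 and 933 on day 14, a wide spread around a tight PBS group. The other 6 of these genes (Psmd3, Psmd6, Psmd7, Psmd8, Psmd9 and Psmd10) had changes from −0.42 for Psmd9 to 0.61 for Psmd6, and none passed.

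Of the 4 activator genes, none passed. Psme3, the nuclear activator PA28 gamma, came nearest, with 14.3, 12.5 and 13.2 FPKM in PBS, 14.9, 12.3 and 13.1 on day 9 and 47.5, 17.2 and 26.9 on day 14. Groups did not overlap, with the highest value again in replicate 1 (1.17 ± 0.34, adjusted p = 0.0676 by limma). Psme1 and Psme2 form PA28 alpha-beta, which is induced with the immunoproteasome by interferon. Psme1 read 349.8, 292 and 291 FPKM in PBS, 295, 342 and 305 on day 9 and 490.1, 533 and 318 on day 14 (0.64, adjusted p = 0.191 by limma). Psme2 read 723, 596 and 571 FPKM in PBS, 537, 801 and 456 on day 9 and 681, 909 and 697 on day 14 (0.42, adjusted p = 0.514 by limma). Day 14 overlapped PBS for both. Psme4 read 1.09, 0.876 and 0.742 FPKM in PBS, 1.46, 1.76 and 1.45 on day 9 and 2.96, 0.885 and 0.824 on day 14. It was the only one of the 41 genes whose day 9 libraries were all above PBS, and its day 14 high came from replicate 1. Its day 9 difference was favoured by the filter, which Psme4 passed only with the day 9 libraries. Among the inhibitor and chaperones, Psmg2 read 149.8, 156 and 153 FPKM in PBS and 129.9, 164 and 202 on day 14 and Psmf1 22.6, 23.9 and 25.3 and 6.45, 17.1 and 35.2. Psmg3 had a change of 1.48 ± 0.51 that rested on 36.4, 12.9 and 7.32 FPKM, highest in replicate 1, against 5.81, 4.55 and 6.08 in PBS (adjusted p = 0.0997 by limma).

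By part of the complex, 3 of 14 tested core genes rose on day 14 (21.4%) and 4 of 24 regulatory genes (16.7%). Among all genes tested 17.1% passed, 6.32% as higher and 10.7% as lower. The median change was 0.41 for core genes and 0.46 for regulatory genes, where the median of all genes is 0 by construction, and 10 of 14 and 21 of 24 lay above that median. In single day 14 libraries, set against the PBS mean, the core median was 0.13, 0.59 and 0.70 and the regulatory median 0.26, 0.43 and 0.74. Replicate 1, with the markers of other kidney cells, was the lowest in both. The groups did not overlap for 16 of the 41 genes: 14 were higher on day 14, where 15.6% of all genes were, and 2 were lower, where 23.8% of all genes were. These counts carry no test, and Psmd14, favoured by the filter, is among the 14.

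These medians were lower after a joint correction for transcript length and GC content. In all genes, the day 14 change fell with the length of the longest annotated transcript (Spearman rho −0.33 over 9731 genes), and proteasome transcripts are short, with a median of 1220 bases for the core and 1987.5 for the regulatory genes against 3178 for all. After a trend on length and GC content was removed from each library, the core median was −0.0393 and the regulatory median 0.12. Of the genes called before, Psma5 (1.0, adjusted p = 0.0457 by limma), Psmb3 (1.38, adjusted p = 0.0286) and Psmd5 (1.72, adjusted p = 0.0323) still passed, while Psmb2 (−1.70), Psmb5 (−0.99) and Psma4 (−0.58), whose change was 0.24 before, passed as lower. The correlation of length with change was 0.38 (Spearman rho) across the 14 core genes, −0.06 across the 24 regulatory genes and 0.07 across all 41. Length and GC content were not corrected apart.

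**Figure D3:**
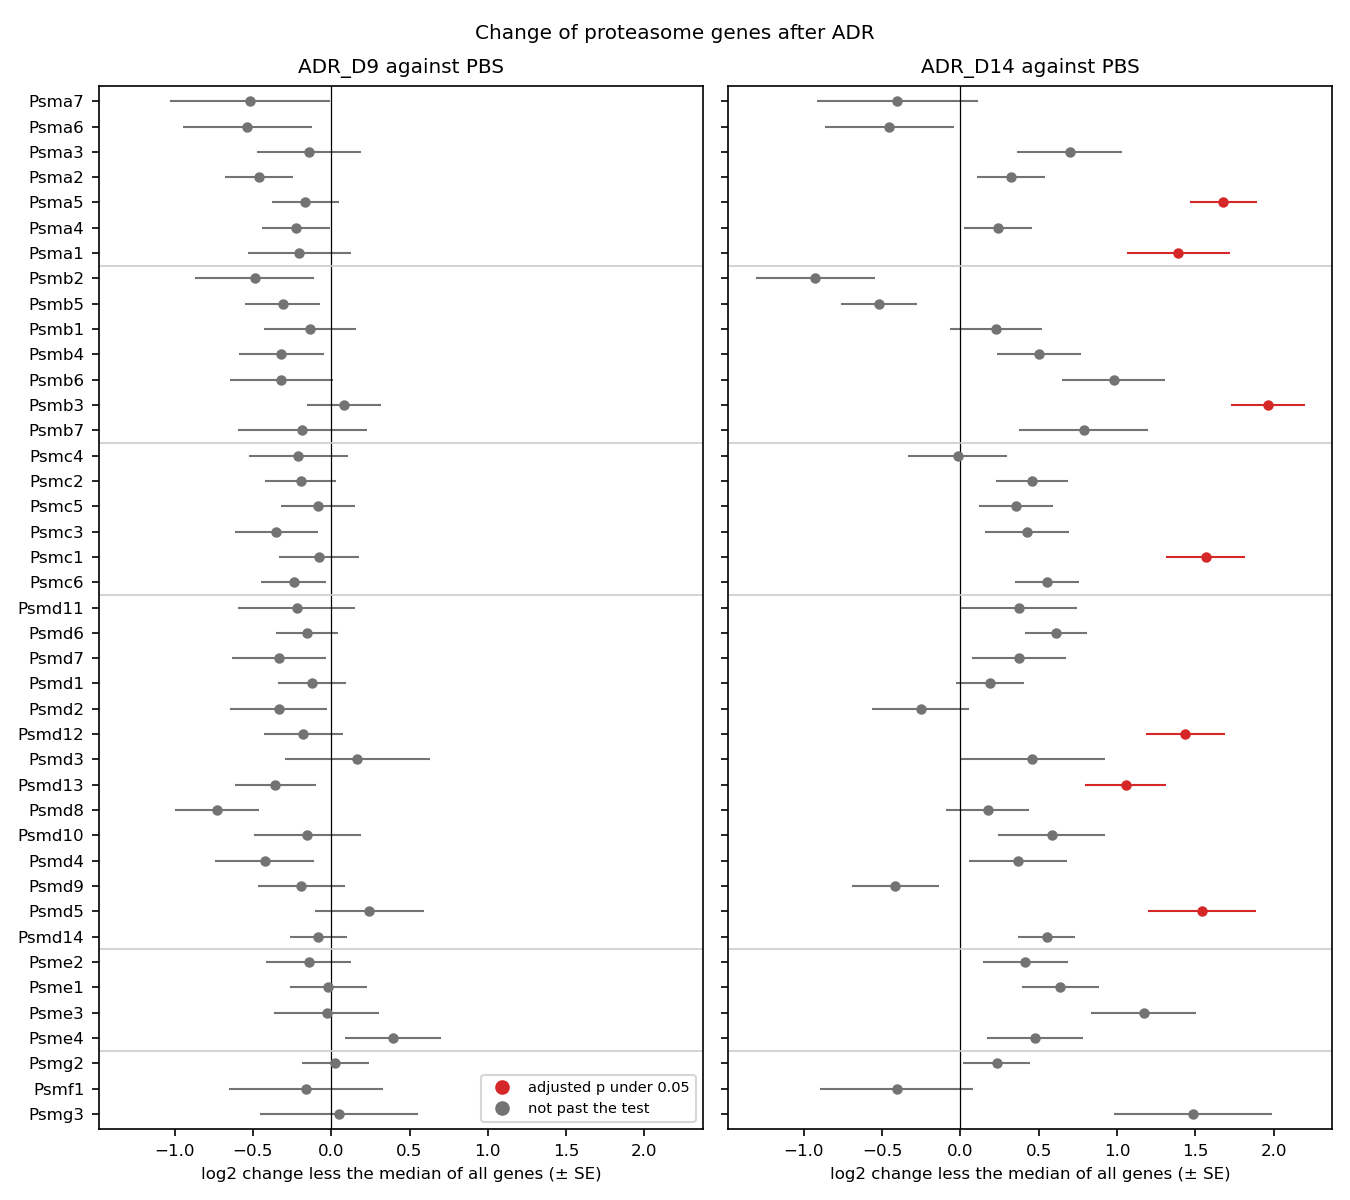
Log2 change in FPKM + 1 against PBS, less the median of all genes, on day 9 (left) and day 14 (right) for the 41 tested genes, ordered as in the plot of levels; bars are the SE of the limma fit. On day 9, 35 of 41 points lie left of 0 and none passed, and on day 14, 33 lie right of 0 and the 7 red points passed.

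On day 9, the 41 genes lay slightly below the median gene, and no change passed. The median was −0.27 for core genes and −0.17 for regulatory genes, and 35 of 41 lay below the median of all genes. The replicates differed: the core median was −0.32, 0.01 and −0.48 in the 3 day 9 libraries and the regulatory median −0.13, −0.09 and −0.34, lowest in replicate 3, which carried endothelial and leukocyte markers. Psmd8, a lid subunit, had the smallest p of the 41, with 12, 10.3 and 9.36 FPKM in PBS and 6.02, 8.55 and 4.36 on day 9 (−0.73 ± 0.27, adjusted p = 1 by limma, unadjusted p = 0.0297). It was the only one of the 41 under an unadjusted p of 0.05, which 304 of all genes were. The day 9 libraries lay wholly below PBS for 9 genes, Psma2, Psmc2, Psmc3, Psmc6, Psmd2, Psmd4, Psmd7, Psmd8 and Psmd13, where 6.63% of all genes did. They lay wholly above for Psme4 alone, where 6.77% of all genes did. Psme4 was favoured here by the filter, and these counts carry no test.

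Between day 9 and day 14, the genes that had risen against PBS also stood apart, except Psmd5. Psma5 (1.88 ± 0.22), Psmb3 (1.92 ± 0.24), Psmc1 (1.68 ± 0.25), Psmd12 (1.65 ± 0.25), Psmd13 (1.45 ± 0.26) and Psma1 (1.63 ± 0.33) were higher on day 14, with adjusted p from 0.00999 to 0.026 by limma. That is 6 of 41 genes, or 14.6%, all higher, where 15.7% of all genes passed, 5.71% higher and 9.98% lower. Psmd5 missed the threshold at 1.33 ± 0.35 (adjusted p = 0.0586), as did Psmb6 at 1.33 ± 0.33 (adjusted p = 0.0512). The medians were 0.84 for core and 0.72 for regulatory genes, and 37 of 41 lay above the median gene. All day 14 libraries were above all day 9 libraries for 17 genes, against 13.2% of all genes, and below for 0, against 24.6%. Psmd14, which passed the filter only through the day 14 libraries, is among the 17, and these counts carry no test. This comparison and that with PBS share the day 14 libraries, so they are not independent of each other.

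Within the core, the day 14 change ran with the level. Across the 14 tested core genes, the mean FPKM on day 9, from libraries that do not enter the contrast, and the change of day 14 against PBS had a Spearman rho of −0.68, against −0.05 across all 9788 genes and −0.16 across the 24 regulatory genes. The 7 most abundant core genes (Psma7, Psmb1, Psmb2, Psmb5, Psmb4, Psma6 and Psma3) had changes from −0.93 to 0.70 with a median of −0.40. The other 7 (Psmb6, Psmb3, Psma2, Psma5, Psma4, Psmb7 and Psma1) had changes from 0.24 to 1.96 with a median of 0.98, all above the median gene. The ratio of mean levels between the highest and lowest core gene, Psma7 and Psma1, was 92.3-fold in PBS, 78.0-fold on day 9 and 29.8-fold on day 14. The day 14 libraries differed in this: Psma7 read 382, 644 and 1726 FPKM and Psma1 43.6, 29.1 and 19.5. In replicate 3 the ratio of Psma7 to Psma1 lay within the range of the PBS libraries, so the narrowing was not seen in every library. With the length and GC trend removed, rho was −0.67. Without ADR_D14 replicate 1 it was −0.45, and without replicate 2 or 3 it was −0.68 or −0.74. In the regulatory genes rho was −0.50 with quantile normalization and ran from −0.28 to 0.06 in the other 7 settings tried. The difference in slope between core and regulatory genes was not tested. All points share the same libraries, and genes are not independent replicates.

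**Figure D4:**
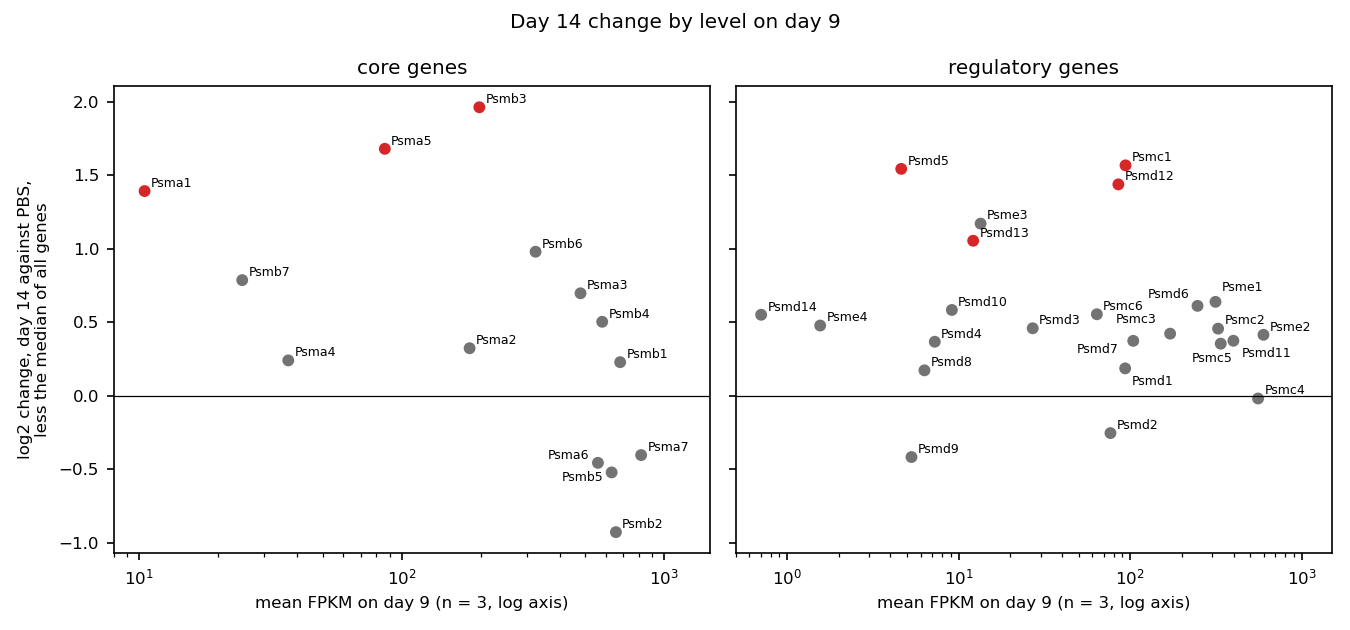
Change of day 14 against PBS (log2 of FPKM + 1, less the median of all genes) by mean FPKM on day 9 (log axis) for core genes (left) and regulatory genes (right); red marks genes that passed. In the core, points fall from the upper left to the lower right (rho −0.68), and in the regulatory genes rho was −0.16, or −0.50 with quantile normalization.

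The genes that work with the proteasome did not move as 1 block on day 14. Of 17 listed partners, 15 were tested, with 2 higher and 5 lower than PBS and a median of −0.10. That is 46.7% of them, against 17.1% of all genes tested (6.32% higher and 10.7% lower). Shfm1, the smallest lid subunit, read 109.5, 73.3 and 91.9 FPKM in PBS and 454, 262 and 260.4 on day 14 (1.93 ± 0.28, adjusted p = 0.0106 by limma). Pomp, a chaperone of core assembly, read 161, 102 and 153 in PBS and 264, 353 and 294 on day 14 (1.29 ± 0.24, adjusted p = 0.0186 by limma). In both, every day 14 library was above every PBS library. The genes that fell were Usp14 (−0.95), a deubiquitinase bound to the cap, AI314180 (−0.78), the mouse Ecm29 gene, and 3 genes linked to ubiquitin shuttling or stress, Rad23b (−1.06), Ubqln4 (−1.53) and Zfand2a (−1.27). Adrm1, another ubiquitin receptor, spanned 17 to 337 FPKM within day 14, lowest in replicate 1, against 163 to 232 in PBS, and did not pass.

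Of the NRF1 route, 9 of 10 genes were tested, with 0 higher and 1 lower, Mafk (−1.68, adjusted p = 0.0226 by limma), a small partner of NRF1. Nfe2l1 itself read 2.56, 2.61 and 3.07 FPKM in PBS and 3.45, 1.56 and 1.84 on day 14 and overlapped. Of the ubiquitin and E1 genes, the ubiquitin gene Ubb rose (1.63 ± 0.36, adjusted p = 0.0283 by limma), while Uba1, the main activating enzyme, fell from 136 ± 26.1 to 46.9 ± 9.80 FPKM (SD, n = 3; −1.37 ± 0.25, adjusted p = 0.0112). Ubiquitin genes carry near-identical copies of the same coding unit, so the value of Ubb is uncertain. The 3 immunoproteasome genes did not pass and overlapped PBS, with changes of 0.66 for Psmb8, 1.10 for Psmb9 and 0.96 for Psmb10. All 3 were highest in ADR_D14 replicate 1, which carried leukocyte markers. As complexes built on the same plan as the lid, the COP9 signalosome had 0 of 9 genes higher and 1 lower (Gps1), and the translation factor eIF3 had 1 of 12 tested genes higher (Eif3e, 1.21) and 3 lower (Eif3c, Eif3d and Eif3k), with medians of −0.22 and −0.37. The shares that passed in either direction were 11.1% for the NRF1 route, 11.1% for COP9 and 33.3% for eIF3, beside 17.1% of all genes (6.32% higher and 10.7% lower). On day 9 none of the genes of these lists passed.

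The calls on day 14 against PBS depended on single PBS libraries. Without PBS replicate 2, none of the 41 genes passed on day 14, as 0 of all genes did by limma, where 2349 had an unadjusted p under 0.05 and the lowest adjusted p was 0.0664. Leaving out PBS replicate 3 left Psma5 and Psmb3 of the 7. Psmd5 was lost without any 1 of the 3 PBS libraries (adjusted p up to 0.123). Psma1 was lost without PBS replicate 2 or 3, ADR_D9 replicate 1 or 2, or ADR_D14 replicate 1 or 2 (adjusted p up to 0.142), and Psmd13 kept its call only without ADR_D9 replicate 3. Against day 9, Psma1 was lost without PBS replicate 2, any 1 of the day 9 libraries or ADR_D14 replicate 2, and Psmd13 without ADR_D9 replicate 3. For day 14 against PBS with a term for Y-linked transcripts, 0 of all genes passed by limma. There, 2282 were under 0.05 before adjustment and the lowest adjusted p was 0.0831 by limma. The changes of Psmb3 and Psma5 against PBS were then 2.19 and 1.79. For day 14 against day 9 with that term, 1239 of all genes passed. They included 6 of the 41: Psma1, Psma5, Psmb3, Psmc1, Psmd12 and Psmd13. Without ADR_D9 replicate 3 and ADR_D14 replicate 1, the pair with markers of other cells, 9 genes passed as higher than PBS on day 14. These were the 7 that had risen against PBS, Psma3 and Psmb6.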

How the data were processed

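Values are FPKM, deposited by the authors in 1 table. Among tools, the submitters' processing notes list Bowtie 0.12.7 and Cufflinks, and as build mm9. The sources used here do not give the annotation, the use of strand or how multiply mapped reads were treated. Columns headed control were matched to PBS libraries by replicate number. Of 23813 rows, 260 symbols stood on several, of which the row of highest mean was used.

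The 9788 genes that reached 1 FPKM in 3 or more of 9 libraries were tested on log2(FPKM + 1) by limma 3.58.1 (R 4.3.3), with its variance trend and all 9 libraries in the fit, two-sided, with Benjamini-Hochberg adjustment; an adjusted p under 0.05 passed. Changes are given less the median change of all genes: 0.04 for day 9 against PBS, −0.15 for day 14 against PBS and −0.22 for day 14 against day 9. The log2(FPKM + 1) scale understates changes of low genes. The test was checked on simulated data drawn gene by gene. These lacked differences shared by the genes of a library, so the check does not cover such differences. Depth was estimated from the most frequent ratio of low values between libraries.

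Members, gene lists and tests were chosen with earlier results of these data known. Values per library are given, for each role, for up to 3 members per direction that passed, for those with the highest and lowest PBS level, and for a list of catalytic, receptor, scaffold and activator genes; Psma3, Psma6, Psmd8, Psmf1, Psmg3 and Psmg4 were named after their values were seen. Transcript lengths came from GENCODE M21 and promoters from RefSeq (GRCm38.p6); no coordinates of the deposited table were used. Alternatives covered the pseudocount, the filter on low values, scaling, the libraries in the fit, a replicate block, the variance trend, the threshold, repeated symbols, a Y-linked term and a length and GC trend. Some genes are not reported here.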

Additional observations from a re-analysis of the deposited data

Results flagged for a closer look

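For 6 genes the change against PBS differed between day 14 and day 9, by the limma test of day 14 against day 9 (3 libraries per group). On the log2 scale, less the median of all genes, the day 14 change exceeded that on day 9 by 1.63 for Psma1, 1.88 for Psma5, 1.92 for Psmb3, 1.68 for Psmc1, 1.65 for Psmd12 and 1.45 for Psmd13. The PBS libraries cancel in this difference, so it is the day 14 against day 9 comparison itself. Psma5 and Psmb3 passed it in all 9 repeats that left out a library and in all 13 other settings.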

How the results depend on the processing

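Counted were the day 14 changes, under all alternatives, of the genes chosen by rule for values per library. Of these changes, 927 kept their direction and their side of the threshold, 31 came to pass, 60 no longer passed and 34 changed sign. None of the 34 was past the test before or after. Psma4, not among the genes so chosen, went from 0.24 to −0.58 against PBS with the length and GC trend removed. It then passed as lower (adjusted p = 0.0487 by limma). For day 14 against PBS, the count of core genes past the test (3, all higher) was 5 with quantile normalization, with the length and GC trend removed and at a threshold of 0.1. In each of these settings Psmb2 and Psmb5 were counted as lower, and with the trend removed Psma4 was lower too. The count was also 5, all higher, without ADR_D9 replicate 3 and ADR_D14 replicate 1. It was 0 with the Y-linked term, and leaving out single libraries gave 0 to 4. The count of regulatory genes (4) was 2 without a low-value filter and with only the groups compared, 1 with the trend removed and 0 with the Y-linked term, and 0 to 6 leaving out single libraries. Without ADR_D14 replicate 3, Psmd2 was counted as lower. With the trend removed the core median reversed, to −0.0393, and the regulatory median was 0.12. The core median (0.41) was 0.14 both with quantile normalization and without a low-value filter, and the regulatory median (0.46) was 0.29 with quantile normalization. For day 14 against day 9, the core count (3) was 5 with median-of-ratios scaling and at a threshold of 0.1, and 2 to 6 leaving out single libraries. The core median (0.84) was 0.46 with no low-value filter, 0.39 with quantile normalization and 0.33 with the trend removed. The regulatory count (3) was 7 with median-of-ratios scaling, 6 with quantile normalization, 8 at a threshold of 0.1, 0 with only the groups compared and 0 with the trend removed, and 2 to 5 leaving out single libraries. The regulatory median (0.72) was 0.34 with quantile normalization and 0.33 with the trend removed. Leaving out single libraries moved the medians of day 14 against PBS between 0.36 and 0.48 for the core and between 0.38 and 0.57 for regulatory genes. For day 14 against day 9 they ran from 0.65 to 0.99 and from 0.57 to 0.86. For day 9 against PBS they ran from −0.41 to −0.13 and from −0.26 to −0.06, with 0 genes past the test each time. The cause of these shifts was not tested.

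Scaling moved the split of all genes past the test on day 14 against PBS, from 619 higher and 1051 lower to 859 and 766 with median-of-ratios scaling, 710 and 755 with quantile normalization and 414 and 1679 with a common total. With a replicate block, 6 proteasome genes passed against PBS (Psmd13 did not) and 7 against day 9 (Psmd5 too). Deviations of same-numbered libraries correlated from −0.27 to 0.43 between groups. With 3 libraries per group, some carrying markers of other cells, this cannot decide whether the numbers pair samples. Depth was lowest on day 14, which limits genes near 1 FPKM such as Psmd14 and Psme4.

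The sign changes among the genes chosen by rule were as follows. Against PBS, Psma7 was 0.1068 without ADR_D9 replicate 3 and ADR_D14 replicate 1, and −1.0031 to 0.1068 leaving out single libraries. Psmc4 was 0.0552 with a pseudocount of 0.1, 0.0085 with a filter of 5 FPKM, 0.0171 with median-of-ratios scaling, 0.0425 with the Y-linked term, 0.342 without that pair, and −0.304 to 0.342 leaving out single libraries. Psmd11 ran from −0.0373 to 0.784 leaving out single libraries. With the trend removed Psmd14 was −0.212, Psme2 −0.264 and Psmg2 −0.445, and with quantile normalization Psmg2 was −0.0517 and Psmd1 −0.0188. Against day 9 with the trend removed, Psma7 was −0.0866, Psmc4 −0.176, Psmd14 −0.178, Psme2 −0.150 and Psmg2 −0.529. With quantile normalization Psma7 was −0.311, Psmc4 −0.229, Psmg2 −0.143 and Psmd2 −0.125. Without a low-value filter Psma7 was −0.0453, Psme4 −0.0767 and Psmd2 −0.0791, and without that pair Psme4 was −0.308. Leaving out single libraries, Psma7 ran from −0.445 to 0.647, Psmc4 from −0.0553 to 0.572, Psme4 from −0.237 to 0.318 and Psmd2 from −0.237 to 0.363.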
